A study of Mus musculus with 58 samples.

Results

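Microglia in which IKKβ was made constitutively active and microglia that had lost IKKβ were both compared with Cre-free controls. The mean of these effects was taken as the average effect of the Cre-carrying genotypes, which 1 of them can also carry alone. The members were the 18 cultured primary microglia libraries of 4 genotypes, out of 58 samples in the series. IkbkbCA microglia (5 libraries) carried 1 Cx3cr1 CreERT2 allele and homozygous IkbkbCA F/F, a Rosa26 insertion from which Cre removes a stop cassette so that constitutively active IKKβ is expressed, and their IkbkbWT controls (5 libraries) carried IkbkbCA F/F with Cx3cr1+/+ and no Cre. Ikbkb-/- microglia (4 libraries) carried 1 Cx3cr1 CreERT2 allele and homozygous floxed Ikbkb F/F, and their Ikbkb+/+ controls (4 libraries) carried Ikbkb F/F with Cx3cr1+/+. All cultures came from cortices and hippocampi of newborn pups, and all, controls included, were given 4-hydroxytamoxifen in mixed glial culture before the microglia were shaken off. The study made mice of these genotypes to ask what microglial NF-κB does in tauopathy. For each gene the average effect was the mean of the log2 fold change of IkbkbCA over IkbkbWT and that of Ikbkb-/- over Ikbkb+/+, all taken from 1 fit.

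CreERT2 is a Cre recombinase that enters the nucleus when it binds 4-hydroxytamoxifen, and here it was inserted into Cx3cr1, the fractalkine receptor gene that microglia and other brain macrophages transcribe. By design each Cre-carrying library therefore differed from its controls in 4 ways that cannot be told apart within a pair, namely 1 interrupted Cx3cr1 allele, CreERT2 protein, its cutting activity and the recombined Ikbkb or Rosa26 allele. The average keeps what is common to both pairs and also part of a change found in 1 pair alone. Changes of opposite direction cancel in it. IKKβ, the kinase encoded by Ikbkb, phosphorylates the inhibitor IκBα and so releases NF-κB to the nucleus, and its activation and its loss are known to move NF-κB targets in opposite directions.

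The gene groups described here have well-known roles. Type I interferons act through IFNAR and the JAK and STAT proteins to induce interferon-stimulated genes, many of which carry an interferon-stimulated response element near the start site. Cytosolic sensors of DNA and RNA lead to interferon production, and p53, which is stabilized by DNA breaks, induces Cdkn1a and other genes that slow the cell cycle. Genes of mitosis are repressed outside the dividing state through promoter elements that include the cell cycle homology region. Border-associated macrophages of the meninges and perivascular space express Mrc1, Lyve1 and scavenger receptors, and also transcribe Cx3cr1.

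Total counts on annotated genes were 1792993 to 8349128 per library with a median of 5523922, and 12352 genes passed the filter on low counts. Reads outside annotated genes were 13.02% of the uniquely mapped reads in IkbkbCA and 17.1% in IkbkbWT (two-sided exact permutation test, p = 0.0079, the smallest this design allows), and 16.4% in Ikbkb-/- and 17.2% in Ikbkb+/+ (exact permutation p = 0.4571). The mitochondrial share of counts was lower with Cre in both pairs, at 3.74% in IkbkbCA against 4.43% in IkbkbWT (exact permutation p = 0.0079) and 3.03% in Ikbkb-/- against 3.67% in Ikbkb+/+ (exact permutation p = 0.0286, also the smallest possible). The mitochondrial genes mt-Cytb (-0.62), mt-Nd1 (-0.60), mt-Nd2 (-0.60), mt-Nd4 (-0.49) and mt-Nd5 (-0.49) were among the genes called lower in both genotypes, and the part of this share in the other results was not tested. The methods state that RNA-seq used male mice only, but Xist, transcribed from the inactive X chromosome of females, was 1.73 to 2.79 CPM in IkbkbWT libraries 1 to 3 and 466 to 486 CPM in libraries 4 and 5, 149 to 279.7 CPM in IkbkbCA, 247 to 397 CPM in Ikbkb+/+ and 5.67 to 10.7 CPM in Ikbkb-/-. The Y-linked Ddx3y had the opposite pattern, with 1.14 and 2.04 CPM in IkbkbWT libraries 4 and 5 against 145 to 174 CPM in the other 3. The sex makeup of the cultures thus differed between Cre-carrying and control libraries, and in the Ikbkb-/- pair it cannot be told apart from the genotype. With the linear CPM of Ddx3y as a covariate Ikbkb-/- had 206 genes higher and 202 lower, and with its log2 CPM 385 and 399, against 444 and 431 without. Within IkbkbCA and IkbkbWT, libraries 1 and 2 and libraries 4 and 5 deviated together from their group means (r = 0.535 to 0.614 over 6804 genes). The same sets ran across both groups, with r = 0.388 to 0.551 between libraries 1 and 2 or 4 and 5 of IkbkbWT and those of IkbkbCA and 0.309 between library 3 of each, although no label pairs them. The fit used here has no term for these sets, and with the set as a covariate the average effect called 3262 genes instead of 2399. In Ikbkb+/+ and in Ikbkb-/-, r was -0.112 to 0.132 between libraries 1 and 2 or 3 and 4. It was -0.589 to -0.369 between the other libraries of a group. Where counts were summed within sets, these libraries were joined too, which left 2 sums in Ikbkb+/+ and 2 in Ikbkb-/-. IkbkbCA library 3 stood apart, with Irf7 at 74.4 CPM against 294 to 350 CPM in the other 4 and Saa3, an acute-phase gene, at 25060 CPM against 917 to 1779 CPM, and without it the average effect below called 1252 genes higher and 1398 lower. Since nothing in the labels says that they came from separate cultures, p-values measure the spread between these libraries, which may be technical.

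Upstream sequences are shown for 3 of the 10 genes that rose most in both pairs and for the falling gene Mki67, to show the letters that were searched for in their place upstream of a start. The sequences were taken from RefSeq on GRCm38.p6 and cover the 150 bases before the annotated start, read along the gene's strand. Capitals mark the letters searched for as an interferon-stimulated response element, GAAA and a further GAAA with 2 bases of any kind between them, or their reverse complement, in Ifi208 (chr1:173673515-173673664, plus strand), Ifi206 (chr1:173491319-173491468, minus strand) and Ifit3 (chr19:34583379-34583528, plus strand). In Mki67 (chr7:135716380-135716529, minus strand) they mark the cell cycle homology region letters TTTGAA, of which there were 2 copies. Ifi208 and Ifi206 are neighboring paralogs with nearly the same upstream letters, and reads could have been divided between them, so that their separate values are uncertain.
Ifi208: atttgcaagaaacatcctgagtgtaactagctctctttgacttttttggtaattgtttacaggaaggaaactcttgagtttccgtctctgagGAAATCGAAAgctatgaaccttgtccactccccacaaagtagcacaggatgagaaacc
Ifi206: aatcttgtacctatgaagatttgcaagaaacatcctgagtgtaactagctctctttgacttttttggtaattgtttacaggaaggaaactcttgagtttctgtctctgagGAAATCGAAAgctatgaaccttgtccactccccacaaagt
Ifit3: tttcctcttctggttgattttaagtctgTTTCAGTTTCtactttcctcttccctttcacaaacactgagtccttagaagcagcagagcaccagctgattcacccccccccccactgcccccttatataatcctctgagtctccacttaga
Mki67: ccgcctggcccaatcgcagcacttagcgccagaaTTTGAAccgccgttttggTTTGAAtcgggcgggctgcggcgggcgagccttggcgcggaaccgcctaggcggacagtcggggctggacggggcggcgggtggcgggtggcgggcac

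Across promoters of 300 bases, 250 before and 50 after the start, the pair of GAAA with 2 bases between occurred on either strand in 53 of the 259 genes higher in both genotypes that had a promoter entry (20.5%), in 6 of 156 lower in both (3.85%) and in 299 of 9340 genes tested (3.2%). In the interferon response list it occurred in 23 of 40 promoters (57.5%), and in genes higher in both outside that list in 32 of 223 (14.3%). The 223 still include interferon-inducible genes such as Ifi208 and Ifi206, which the list does not hold. TTTGAA, searched on both strands, occurred in 48 of 156 genes lower in both (30.8%), in 15.4% of those higher in both and in 11.4% of the genes tested. It also occurred in 13 of 40 promoters (32.5%) of the interferon response list, whose members rose. In genes lower in both but outside the DNA replication and mitosis list it occurred in 36 of 141 (25.5%). The κB letters, GGGA and TTTCC with 1 base between on either strand, were found in 0.772% of promoters higher in both, 0.641% of those lower in both and 0.396% of all tested. The p53 letters, 2 copies of CATG with 6 bases between, were found in 4 of 259 promoters higher in both (1.54%) and in 0.268% of all tested. A match is a description of the letters and not of binding, and Irf7 and Oasl1, which rose strongly, had no such pair of GAAA in this window, while Nusap1 and Cenpe, which fell in both, had no TTTGAA.

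The average effect called 2399 of 12352 genes (quasi-likelihood test of edgeR, adjusted by Benjamini-Hochberg, FDR under 0.05), of which 1147 were higher with Cre (9.29%) and 1252 were lower (10.1%). When total counts replaced TMM as the scaling, the higher genes were 34.1% of the calls instead of 47.8%. A covariate for the percentage of reads outside genes left 775 called genes, and summing the counts of each library set left 732. IkbkbCA alone had 1138 genes higher (9.21%) and 1091 lower (8.83%) than IkbkbWT, and Ikbkb-/- alone had 444 higher (3.59%) and 431 lower (3.49%) than Ikbkb+/+. Called in both genotypes were 324 genes higher in both (2.62% of genes tested) and 201 lower in both (1.63%), while 21 genes were called in opposite directions (0.17%). The genes higher and lower in both numbered 120 and 66 with the covariate for reads outside genes, 91 and 25 with summed sets and 153 and 111 with the linear CPM of Ddx3y as a covariate. The effects themselves differed at 386 genes (3.12%). With no regard to calls, the libraries did not overlap in either pair for 286 genes higher in both (2.32%) and 211 lower in both (1.71%).

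An average can be carried by 1 genotype, and the calls were of several kinds. Of the 1147 genes with a higher average, 324 (28.2%) were also called in each genotype, 527 (45.9%) in IkbkbCA only, 97 (8.46%) in Ikbkb-/- only and 199 (17.3%) in neither alone. Of the 527, 137 (26%) differed between the genotypes in the test of the difference, so for these the average does not describe both. Of the 1252 genes with a lower average, 201 (16.1%) were called in both, 581 (46.4%) in IkbkbCA only, 169 (13.5%) in Ikbkb-/- only and 24.0% in neither alone. The 324 genes higher in both were 28.5% of the increases in IkbkbCA and 73.0% of those in Ikbkb-/-, and the 201 lower in both were 18.4% and 46.6% of the decreases.

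Sizes were close between the genotypes at the median in these genes, which had to pass in both. The effect was larger in IkbkbCA than in Ikbkb-/- for 109 of the 324 genes and for 70 of the 201. The 324 genes higher in both had a median log2 fold change of 0.96 in IkbkbCA and 1.06 in Ikbkb-/-, 137 of them exceeded 1 in both and 56 exceeded 2 in both. In the 201 genes lower in both the medians were -0.61 and -0.77, with 33 genes beyond 1 and 5 beyond 2 in both. Among them, 11 of the 324 and 6 of the 201 also differed between the genotypes. Over all 12352 genes the log2 fold changes of the pairs, which share no library, correlated across genes with r = 0.383 and the same sign in 61.4%, as a description, since genes are not independent. In the 11954 genes outside every list used here r was 0.320, and these still include interferon-inducible genes such as Ifi206 and Ifi208.

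**Figure D1:**
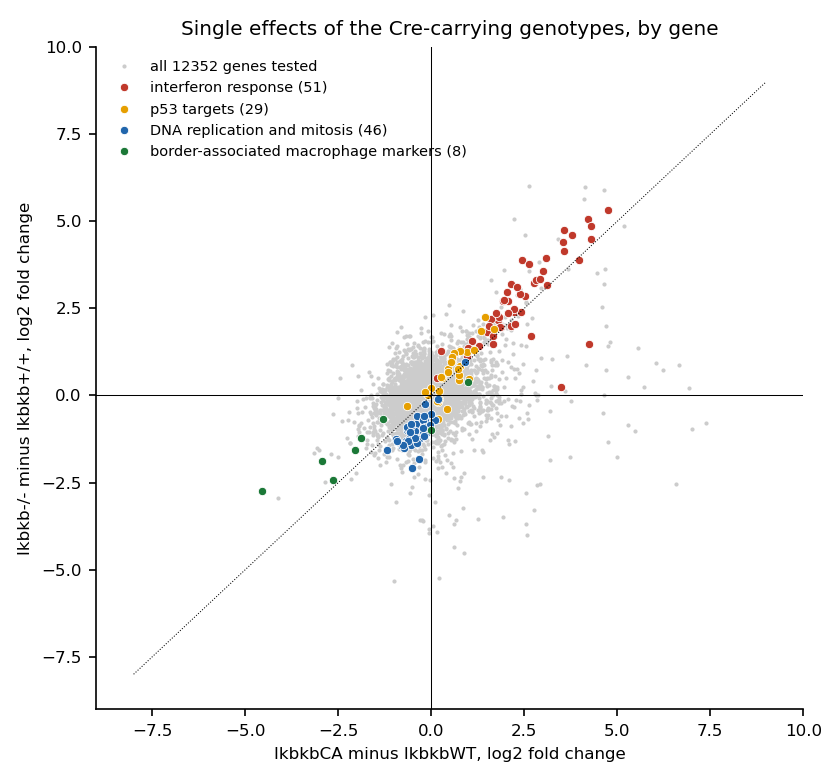
Log2 fold change of IkbkbCA over IkbkbWT (horizontal axis) against that of Ikbkb-/- over Ikbkb+/+ (vertical axis), 1 point per gene, with 12352 genes tested in gray and 4 gene lists in color. The dotted line marks equal effects. Interferon response genes lie along it at the upper right, p53 targets mostly above 0 on both axes, DNA replication and mitosis genes mostly below 0 on the vertical axis, and most border-associated macrophage markers at the lower left.

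Interferon-stimulated genes rose in both genotypes. The paper also described interferon signaling among the genes that activation and deletion changed in common. All 51 members of the interferon response list were called higher in the average effect, spanning 0.33 to 5.04 in log2 fold change around a median of 2.36, against -0.01 over all genes tested. In IkbkbCA 49 were higher (median 2.23) and in Ikbkb-/- 49 were higher (median 2.49), 47 of them in both. Counts of this and the later lists are to be read against the shares over all genes tested. Higher were 9.29% in the average effect, 9.21% in IkbkbCA, 3.59% in Ikbkb-/- and 2.62% in both. Lower were 10.1%, 8.83%, 3.49% and 1.63%, in the same order. Trim25 and Ifi207 were not called in IkbkbCA, and Ifi44 and Cxcl10 were not called in Ikbkb-/-. The summed CPM of the list was 1290 to 2220 in IkbkbWT, 3710 to 8770 in IkbkbCA, 1670 to 1940 in Ikbkb+/+ and 8130 to 9350 in Ikbkb-/-, so that the groups of neither pair overlapped.

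Irf7 (ENSMUSG00000025498, chr7:141262706-141266481, minus strand), the transcription factor that amplifies type I interferon production, was 14.3, 15.9, 19.6, 9.29 and 13.4 CPM in IkbkbWT, 349.5, 318, 74.4, 294 and 299 CPM in IkbkbCA, 13.4, 14.7, 10.1 and 9.61 CPM in Ikbkb+/+ and 311, 282, 450.4 and 509 CPM in Ikbkb-/-. All Cre-carrying libraries lay above all controls, and IkbkbCA library 3 was the lowest of them. The average log2 fold change was 4.63 ± 0.26 (SE, edgeR FDR = 2.26e-10), from 4.21 in IkbkbCA and 5.06 in Ikbkb-/-, which did not differ in the test of the difference (-0.84 ± 0.49, edgeR FDR = 0.435). The effector Ifit3 (chr19:34583531-34588731), which binds viral RNA with its family members, was 15.4, 12.2, 29.7, 8.96 and 7.27 CPM in IkbkbWT, 229.6, 213, 74.5, 244 and 223 CPM in IkbkbCA, 16.7, 15.3, 14.7 and 12.9 CPM in Ikbkb+/+ and 297, 312, 398 and 438 CPM in Ikbkb-/-. Again only IkbkbCA library 3 was well below its group, and the average was 4.19 ± 0.26 (edgeR FDR = 6.82e-10).

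Ifi208, a member of the p200 family of interferon-inducible proteins, had one of the largest shared changes at 5.03 ± 0.28, from 0 to 0.408 CPM in IkbkbWT and 0.330 to 0.527 CPM in Ikbkb+/+ to 5.71 to 11.2 CPM in IkbkbCA and 8.98 to 15.6 CPM in Ikbkb-/-. The control groups had 6 and 9 reads in all on Ifi208, so its fold change is imprecise.

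The other genes that rose most in both pairs were of the same kind, with average log2 fold changes of 5.04 for Oas3 and 4.58 for Oasl1 of the oligoadenylate synthetase family, 4.66 for Ifi206, 4.86 for Ifi213, 4.39 for the interferon-inducible GTPase Iigp1, 3.92 for Usp18 and 3.66 for Gbp4. Usp18 removes ISG15 from proteins and restrains IFNAR signaling. Socs1, another restraint on the JAK proteins, also rose (1.49), while Socs3 was lower in the average (-0.72) with 0.18 in IkbkbCA and -1.63 in Ikbkb-/-, and this difference was called (1.81, edgeR FDR = 0.018). Cmpk2, a mitochondrial nucleotide kinase, rose by 2.63 in IkbkbCA and 3.77 in Ikbkb-/-, a difference that was called as well.

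Interferon genes themselves were barely counted. Ifna1, Ifna2, Ifna4, Ifna5, Ifng, Ifnl2 and Ifnl3 were listed at 0 in all 18 libraries. A count of 0 allows up to 0.341 to 1.68 CPM depending on the library, for counting error only. Trex1, a DNA exonuclease gene that macrophages express, was also listed at 0 throughout, so a 0 in these tables need not be a matter of depth. Ifnb1 had 3 reads in the 5 IkbkbWT libraries and 12 in the 5 IkbkbCA libraries, a ratio of 4.53 after scaling to depth (95% counting interval 1.22 to 25.0), and 3 reads in Ikbkb+/+ and 11 in Ikbkb-/-, a ratio of 4.76 (1.26 to 26.6). These intervals cover counting error only and not the spread between libraries. Of the receptor and signaling genes, Ifnar2 (0.21) and Tyk2 (0.22) were called higher by small amounts, and Jak1 (-0.07) and Ifngr1 (0.02) were not called.

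Of 23 nucleic acid sensing genes tested, 12 were higher in the average effect, against 9.29% of all genes tested. Rnaseh2c was lower (-0.34), and the median was 0.29. The 8 genes called higher in both genotypes were mostly sensors that are themselves interferon-stimulated. Ddx58, which encodes the RNA sensor RIG-I, was 10.9 to 18.2 CPM in IkbkbWT, 49.6 to 88.9 CPM in IkbkbCA, 13.8 to 19.3 CPM in Ikbkb+/+ and 72.7 to 80.8 CPM in Ikbkb-/-, an average of 2.31 ± 0.11 (edgeR FDR = 1.29e-10) with nearly equal effects of 2.34 and 2.28. Ifih1 (MDA5, 1.98), Dhx58 (LGP2, 2.21), Zbp1 (3.11), Tlr3 (1.53), the RNA-editing enzyme Adar (1.24) and the nucleotide hydrolase Samhd1 (0.98) rose in both. Upstream parts of the DNA-sensing route, Cgas (0.17), Tmem173, which encodes STING (0.05), Tbk1 (0.08) and Irf3 (-0.08), and the inflammasome DNA sensor Aim2 (0.13), were not called.

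MHC class I genes, which present peptides to cytotoxic T cells, rose in both genotypes. All 17 genes of class I presentation were higher in the average effect with a median of 1.19, 17 in IkbkbCA (median 1.31) and 12 in Ikbkb-/- (median 1.04), and the effects differed at 2 of the 17. H2-K1, a classical class I heavy chain, was 220.4 to 473 CPM in IkbkbWT, 1728 to 1881 CPM in IkbkbCA, 273 to 394 CPM in Ikbkb+/+ and 806 to 915 CPM in Ikbkb-/-. Neither pair overlapped, but the increase of 2.55 in IkbkbCA was larger than that of 1.41 in Ikbkb-/- (difference 1.14 ± 0.23, edgeR FDR = 0.00686). The peptide transporter Tap1 (1.69 and 1.71), the chaperone Tapbp (1.31 and 1.06), the immunoproteasome subunit Psmb8 (1.02 and 1.04) and the class I transactivator Nlrc5 (1.89 and 1.75) rose in both. H2-Q4, H2-Q6 and H2-Q7 are near-identical neighbors, and how reads divide among them is uncertain.

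**Figure D2:**
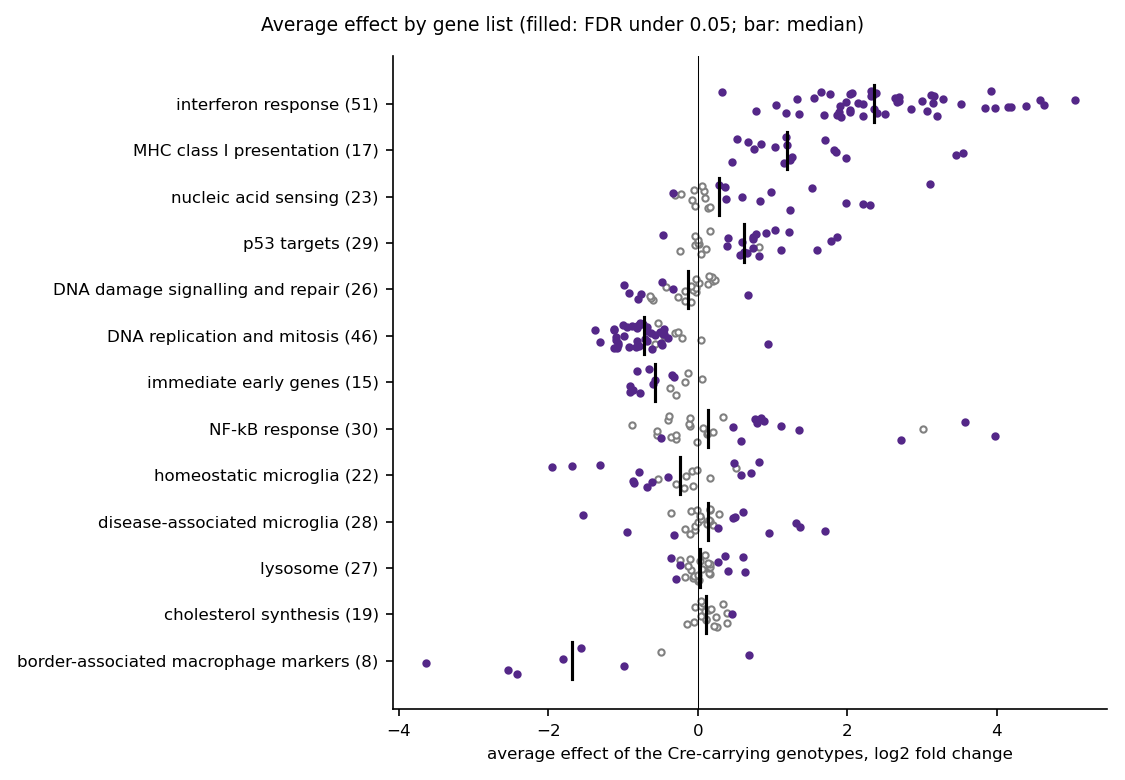
Average log2 fold change of the Cre-carrying genotypes (horizontal axis) for the tested members of 13 gene lists, 1 point per gene with the number tested in parentheses. Filled points had an FDR under 0.05 and the bar is the list's median. Every interferon response and class I point is filled and above 0, while the median of DNA replication and mitosis is -0.72 and that of the border-associated macrophage markers -1.68.

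Targets of p53 also rose in both genotypes. Of 29 tested, 18 were higher in the average effect, against 9.29% of all genes tested, and Sesn1 was lower (-0.47). The median was 0.61, and 9 were higher with the covariate for reads outside genes. The list had 12 members higher in IkbkbCA and 13 in Ikbkb-/-, 10 of them in both. Cdkn1a (ENSMUSG00000023067, chr17:29090976-29100727, plus strand), the cyclin-dependent kinase inhibitor p21, was 247, 269, 364, 252 and 213 CPM in IkbkbWT, 629.5, 749, 714, 672 and 652 CPM in IkbkbCA, 169, 202, 182 and 192 CPM in Ikbkb+/+ and 634, 599, 682 and 759.5 CPM in Ikbkb-/-. No Cre-carrying library overlapped a control, and the average was 1.59 ± 0.09 (edgeR FDR = 2.26e-10), from 1.35 and 1.84. Ccng1, which encodes cyclin G1, was 80.2 to 117 CPM in IkbkbWT, 147 to 236 CPM in IkbkbCA, 92.1 to 114 CPM in Ikbkb+/+ and 233 to 247 CPM in Ikbkb-/-, an average of 1.12 ± 0.09 (edgeR FDR = 1.55e-08).

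The other p53 targets called in both were Psrc1 (1.86), Phlda3, an inhibitor of AKT (1.79), Trp53inp1 (1.23), the RNA-binding Zmat3 (1.03), Sesn2 (0.78), Dglucy (0.74), Mdm2, the ubiquitin ligase that degrades p53 (0.59), and Ei24 (0.39). The mediators of apoptosis Bax (0.66), Bbc3 (PUMA, 0.61) and Pmaip1 (NOXA, 0.74) were each called in 1 genotype only. Gdf15 (0.00), Btg2 (-0.24) and Fas (0.02), also p53 targets, were not called. Of 26 genes of DNA damage signaling and repair, 1 was higher, Gadd45a (0.68), and 6 were lower. The median was -0.14, and 10.1% of all genes tested were lower. Among the 6 were the histone H2afx (-0.92) and Brca2 (-0.80), which are also used in replicating cells, while Trp53 itself (0.20), Atm (-0.10) and Parp1 (-0.03) were not called.

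Genes of DNA replication and mitosis fell, by more in Ikbkb-/- than in IkbkbCA at the median. Of 46 tested, 37 were lower in the average effect (18 with summed sets), against 10.1% of all genes tested, and the median was -0.72. Lower were 16 in IkbkbCA (median -0.41) and 32 in Ikbkb-/- (median -1.01), all 16 in both. Shares lower over all genes tested were 8.83% in IkbkbCA and 3.49% in Ikbkb-/-. The genotypes differed at 3 of the 46. Mki67 (ENSMUSG00000031004, chr7:135689784-135716361, minus strand), the Ki-67 protein of dividing cells, was 47.0, 46.9, 56.5, 46.3 and 55.5 CPM in IkbkbWT, 20.8, 19.7, 27.6, 23.4 and 18.3 CPM in IkbkbCA, 52.0, 58.9, 62.9 and 60.3 CPM in Ikbkb+/+ and 16.8, 20.4, 20.97 and 20.1 CPM in Ikbkb-/-. All Cre-carrying libraries lay below all controls, and the average was -1.38 ± 0.08 (edgeR FDR = 4.17e-10), with -1.20 and -1.57.

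Among the members were genes of the spindle, the kinetochore and chromosome structure, with averages of -1.12 for Nusap1, -1.10 for Cenpe, -1.12 for Ndc80 and -1.0 for Top2a, each lower in both. Nusap1 fell by more in Ikbkb-/- (-1.52 against -0.73, difference called). The replication factors Pcna (-0.46) and Mcm3 (-0.45) were lower in the average but not called in IkbkbCA, and Mcm6 (-0.27) and Cdt1 (0.04) were not called. Ccnd1, which encodes cyclin D1 of the G1 phase, was the exception and rose, from 475 to 625 CPM in IkbkbWT and 487 to 536 CPM in Ikbkb+/+ to 975 to 1088 CPM in IkbkbCA and 752 to 1236 CPM in Ikbkb-/-, an average of 0.94 ± 0.09 (edgeR FDR = 3.02e-07). In these bulk samples fewer cells of a kind and less RNA per cell cannot be told apart, for dividing cells and for the macrophages described next.

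Markers of border-associated macrophages fell in both genotypes. Of 8 tested, 6 were lower in the average effect, against 10.1% of all genes tested, and Ms4a7 was higher (0.68). The median was -1.68, and 5 were lower in both genotypes, against 1.63% of all genes tested. The summed CPM of the list was 3070 to 4380 in IkbkbWT, 1870 to 2520 in IkbkbCA, 3600 to 3770 in Ikbkb+/+ and 1520 to 2190 in Ikbkb-/-. Lyve1 (ENSMUSG00000030787, chr7:110850607-110863239, minus strand), the hyaluronan receptor, was 33.4, 44.0, 54.2, 45.6 and 33.0 CPM in IkbkbWT, 1.37, 3.29, 0.186, 1.39 and 3.01 CPM in IkbkbCA, 23.4, 20.97, 56.8 and 27.0 CPM in Ikbkb+/+ and 1.12, 5.25, 1.17 and 9.56 CPM in Ikbkb-/-. Of all genes tested it had the lowest average, at -3.64 ± 0.34 (edgeR FDR = 1.62e-07), from -4.55 and -2.73, which did not differ in the test (edgeR FDR = 0.202).

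Mrc1, the mannose receptor CD206, was far more abundant. It was 1310.0, 1192, 973, 1143 and 1120.0 CPM in IkbkbWT, 287, 249, 201, 328 and 316 CPM in IkbkbCA, 1135, 1158, 1292 and 1257 CPM in Ikbkb+/+ and 521, 542, 272 and 319.9 CPM in Ikbkb-/-, an average of -1.80 ± 0.13 (edgeR FDR = 3.85e-09). The scavenger receptor Stab1 (-1.56), the transglutaminase F13a1 (-2.54) and the carbonyl reductase Cbr2 (-2.42) also fell in both, while the chemokine Pf4 did not pass (-0.49). Other genes that fell most in both were Sfrp5, a Wnt inhibitor (-3.53), Ccl24, an eosinophil chemokine (-2.67 ± 0.22, from 21.7 to 48.4 CPM in IkbkbWT to 2.76 to 6.57 CPM in IkbkbCA and from 15.6 to 24.4 CPM to 2.21 to 5.25 CPM), the lectin Clec10a (-2.13), the endothelin receptor Ednrb (-2.19), the chemokine receptor Ccr1 (-2.41) and the lipid scavenger receptor Cd36 (-1.63). Ccr1 fell by more in IkbkbCA (-3.16) than in Ikbkb-/- (-1.66), a difference that was called. Sfrp5 had 3 reads in IkbkbCA and 6 in Ikbkb-/- in all, so its size is imprecise.

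**Figure D3:**
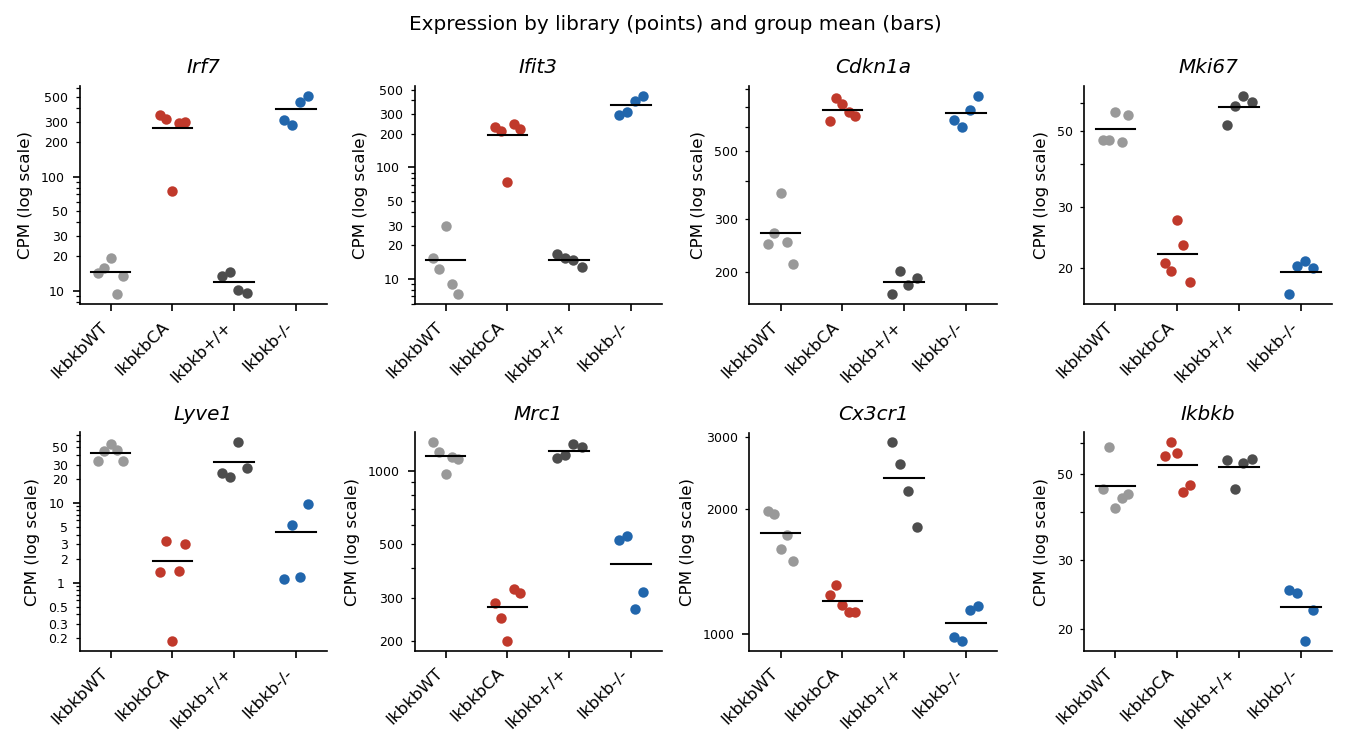
TMM-normalized CPM of 8 genes on a log axis, 1 point per library and a bar at the mean of each of the 4 genotypes, with 5, 5, 4 and 4 libraries. Irf7, Ifit3 and Cdkn1a were higher and Mki67, Lyve1, Mrc1 and Cx3cr1 lower in every Cre-carrying library than in the controls of its pair, while Ikbkb was lower in Ikbkb-/- alone. IkbkbCA library 3 is the low point of that group for Irf7 and Ifit3.

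Cx3cr1 (ENSMUSG00000052336, chr9:119901616-120069879, minus strand), 1 copy of which holds CreERT2 in these cells, was 1987, 1947, 1608, 1735 and 1504 CPM in IkbkbWT, 1245, 1314, 1177, 1130.0 and 1132 CPM in IkbkbCA, 2903, 2572, 2216 and 1811 CPM in Ikbkb+/+ and 984, 962, 1142 and 1166 CPM in Ikbkb-/-. Neither pair overlapped. The average was -0.85 ± 0.08 (edgeR FDR = 3.96e-07), with -0.55 ± 0.11 in IkbkbCA and -1.16 ± 0.13 in Ikbkb-/-, and the difference did not pass (edgeR FDR = 0.0556). Whether a 3′ read came from the intact or the interrupted allele cannot be read from these counts.

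Ikbkb (ENSMUSG00000031537, chr8:22659212-22706589, minus strand) is the gene that separates the genotypes by design. It was 41.0 to 58.7 CPM in IkbkbWT and 44.9 to 60.3 CPM in IkbkbCA, which overlapped (0.18 ± 0.11, edgeR FDR = 0.299), and 54.2, 45.7, 53.3 and 54.8 CPM in Ikbkb+/+ against 25.2, 24.8, 18.6 and 22.4 CPM in Ikbkb-/- (-1.20 ± 0.13, edgeR FDR = 5.19e-06). The average of -0.51 is thus a value of Ikbkb-/- alone. Reads of these libraries lie near the 3′ end of transcripts, so the count checks neither a deletion further upstream nor a transgene with its own 3′ end, and the IkbkbCA labels were not tested by it. By quantitative PCR the paper reported more Ikbkb mRNA in IkbkbCA and less in Ikbkb-/- primary microglia.

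Around Cx3cr1, 29 other genes within 2 Mb were tested, of which 3 were higher and 4 lower in the average effect, and of 58 genes at 2 to 10 Mb 4 were higher and 8 lower. Over all genes tested 9.29% were higher and 10.1% lower, so these counts are near the background. Within 2 Mb, Myd88, the adaptor of Toll-like receptors, rose in both genotypes (0.59) and the integrin subunit Itga9 fell in both (-0.64). The nearest called gene, Csrnp1, was lower (-0.81), and Golga4 (-0.25), Nktr (-0.31), Acaa1a (0.31) and Ctnnb1 (0.23) changed by less. Ccr1, described with the falling genes, starts 3.9 Mb from Cx3cr1.

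**Figure D4:**
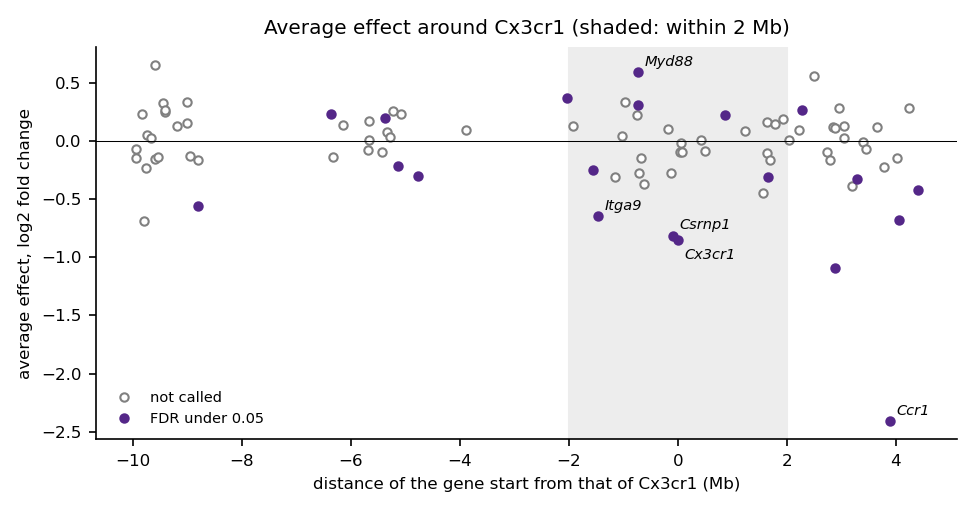
Average log2 fold change (vertical axis) of the tested genes on mouse chromosome 9 by the distance of their start from that of Cx3cr1 in Mb (horizontal axis), with filled points at an FDR under 0.05 and the 2 Mb on either side shaded. Called genes of both directions lie inside and outside the shaded span, and Ccr1 is the lowest point at -2.41.

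NF-κB targets moved apart in the genotypes. Of 30 tested, 17 were higher and 1 lower in IkbkbCA (median 1.33), and 1 was higher and 5 lower in Ikbkb-/- (median -0.37), so that the median average was 0.13 with 11 higher and 1 lower. The genotype effects differed at 17 of the 30, against 3.12% of all genes tested. In IkbkbCA 9.21% of all genes tested were higher, and in Ikbkb-/- 3.49% were lower. The summed CPM of the list was 3481, 2373, 2202 and 1701 in Ikbkb+/+ libraries 1 to 4, in the same order as the granulocyte markers given with the other cell types, and 1426 to 1721 in Ikbkb-/-, and the part of those markers was not tested. Nfkbia, the inhibitor IκBα and a direct NF-κB target, was 336 to 386 CPM in IkbkbWT and 799 to 1317 CPM in IkbkbCA, but 354 to 1488 CPM in Ikbkb+/+ and 255 to 286 CPM in Ikbkb-/-, effects of 1.39 and -1.61 that averaged to -0.11 (edgeR FDR = 0.746). Relb, an NF-κB subunit, was called in the average (0.79) from 1.74 in IkbkbCA and -0.15 in Ikbkb-/-, where it was not called (edgeR FDR = 0.548).

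The member of that list called higher in both was Ccl5, a chemokine that interferon regulatory factors also induce. It was 0.795 to 6.33 CPM in IkbkbWT, 33.0 to 95 CPM in IkbkbCA, 1.05 to 4.08 CPM in Ikbkb+/+ and 21.3 to 29.8 CPM in Ikbkb-/-, an average of 3.98 ± 0.33 (edgeR FDR = 3.68e-08). Among average calls that 1 genotype carried and the test of the difference called, the highest were Ly6i (3.77), Saa3 (3.57), and Acod1, which makes itaconate (3.48). Acod1 was 0.978 to 3.83 CPM in IkbkbWT and 146 to 224 CPM in IkbkbCA, but 2.11 to 4.45 CPM in Ikbkb+/+ and 4.23 to 5.13 CPM in Ikbkb-/-, where it was not called (0.74, edgeR FDR = 0.184). The lowest were Siglech (-1.95), Gem (-1.90) and H2-Eb1 (-1.88). Siglech, a lectin of microglia, was 314, 205, 92.1 and 9.75 CPM in Ikbkb+/+ and between 8.09 and 15.8 CPM in each library of the other 3 groups, so that its average rests on 3 libraries.

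Of the 21 genes called in opposite directions, 19 were higher in IkbkbCA and lower in Ikbkb-/-, among them Nfkbia, Tnfaip3, Nfkbiz and Junb, and 2, Fabp5 and Enho, had the reverse pattern. They were named after their values were seen.

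Other gene lists held smaller or mixed changes, to be read against the 9.29% higher and 10.1% lower over all genes tested. Of 22 homeostatic microglia genes 4 were higher and 9 lower, with a median of -0.23, and Cx3cr1 was among those lower in both. Summed over the list, Ikbkb+/+ libraries 1 to 4 had 21190, 19420, 16740 and 13100 CPM. Ikbkb-/- libraries had 13190 to 14850 CPM, so that Ikbkb+/+ library 4 lay below each of them. Slc2a5, a fructose transporter, was lower in the average (-1.68), with -2.79 in Ikbkb-/- and -0.57 in IkbkbCA, where it was not called. Of 28 disease-associated microglia genes 8 were higher and 3 lower, with a median of 0.14, and Cd52 (1.70), Npc2 (0.60) and Gpnmb (0.48) were higher in both. Immediate early genes were lower in 10 of 15 with a median of -0.57. In IkbkbCA 4 were lower and 1 higher (median -0.38), and in Ikbkb-/- 9 were lower (median -0.71). Jun (-0.57) and Ier2 (-0.60) were the 2 that fell in both. With the covariate for reads outside genes 6 of the 15 were lower and with summed sets 3. The lysosome list had 5 genes higher and 3 lower of 27, and the cholesterol synthesis list had 1 of 19 called.

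Markers of other brain cell types were checked as whole lists. Summed over the list, microglia markers were 17000 to 23500 CPM in IkbkbWT, 20600 to 31000 CPM in IkbkbCA, 22000 to 26500 CPM in Ikbkb+/+ and 24900 to 27800 CPM in Ikbkb-/-, and within each library set they were higher in IkbkbCA than in IkbkbWT. Astrocyte markers were 59.0 to 966 CPM and oligodendrocyte lineage markers 553 to 5740 CPM in IkbkbWT, where the highest of both was library 3, against 92.4 to 340 and 894 to 2260 CPM in IkbkbCA, 130 to 262 and 544 to 675 CPM in Ikbkb+/+ and 110 to 191 and 916 to 1040 CPM in Ikbkb-/-. Neuron markers were 74.3 to 601 CPM, fibroblast and mural cell markers 2.92 to 46.1 CPM and lymphocyte markers 0.742 to 8.75 CPM. Granulocyte markers summed to 424, 96.9, 39.6 and 8.17 CPM in Ikbkb+/+ libraries 1 to 4 and 8.16 to 13.2 CPM in Ikbkb-/-, and to 6.85 to 12.2 CPM in IkbkbWT and 17.1 to 86.7 CPM in IkbkbCA. Of 44 markers tested for cell types other than microglia and border-associated macrophages, 3 were called in the average effect, Cspg4 and Flt1 higher and the granulocyte gene S100a9 lower. This is no more than the share over all genes tested, of which 9.29% were higher and 10.1% lower. The count does not measure how many other cells were present. Endothelium markers summed to 168 to 221 CPM in Ikbkb-/- and 66.9 to 129 CPM in Ikbkb+/+, and their part in the other results was not tested.

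Between the library sets of IkbkbCA and IkbkbWT the medians of the lists kept their direction but not their size. On the scale of log2 mean CPM plus 0.5, Irf7 differed by 4.42 between libraries 1 and 2 of each group, by 1.90 between library 3 of each and by 4.65 between libraries 4 and 5. The median of the interferon response list was 2.21, 0.85 and 2.68 in these sets, that of p53 targets 0.75, 0.31 and 0.48, that of DNA replication and mitosis -0.70, -0.23 and -0.29 and that of border-associated macrophage markers -2.13, -1.84 and -1.94. Of the genes called in both genotypes, 288 of the 324 higher and 188 of the 201 lower had that direction in all 3 sets. They were called on these same libraries, so the direction was largely fixed beforehand and the count is a description only.

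Microglia without Cre gave another readout of the genes called in both genotypes. Wild-type primary microglia exposed for 24 hours to full-length tau fibrils at 2 μg/ml were compared with vehicle (4 libraries each, fitted alone), where 1506 of 10408 genes were higher (14.5%) and 1602 lower (15.4%) with tau. Of the 324 genes higher in both genotypes 300 were tested with tau, and 229 were higher (76.3%) and 9 lower (3.0%), with a median log2 fold change of 1.45. Of the 201 lower in both 181 were tested, and 16 were higher (8.84%) and 59 lower (32.6%), with a median of -0.23. Among all genes tested in both fits, 14.7% were higher and 14.8% lower with tau.

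The groups separated in this readout. All 44 interferon response genes called in both genotypes and tested with tau were higher with tau, with a median of 3.85. Of the 220 genes higher in both that stand in no list used here 160 were higher (72.7%) and 5 lower. The 220 still include interferon-inducible genes such as Ifi206 and Ifi208, so they are not a group apart from the interferon response. Of the 10 p53 targets called in both, Cdkn1a was called higher with tau (0.65) and Psrc1 (-1.27) and Trp53inp1 (-0.72) lower, and the median was -0.13. The 16 DNA replication and mitosis genes lower in both had a median of -1.10 with tau, and 14 of them were lower. Ccnd1, which rose with Cre, was lower with tau (-0.48), and so were Rgs16, Serpine2, Tmem43, Bend6, Gpnmb and Enc1. Mrc1, which fell with Cre, was at 0.32 with tau and was not called (edgeR FDR = 0.424), and Cx3cr1 was higher with tau (1.08).

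**Figure D5:**
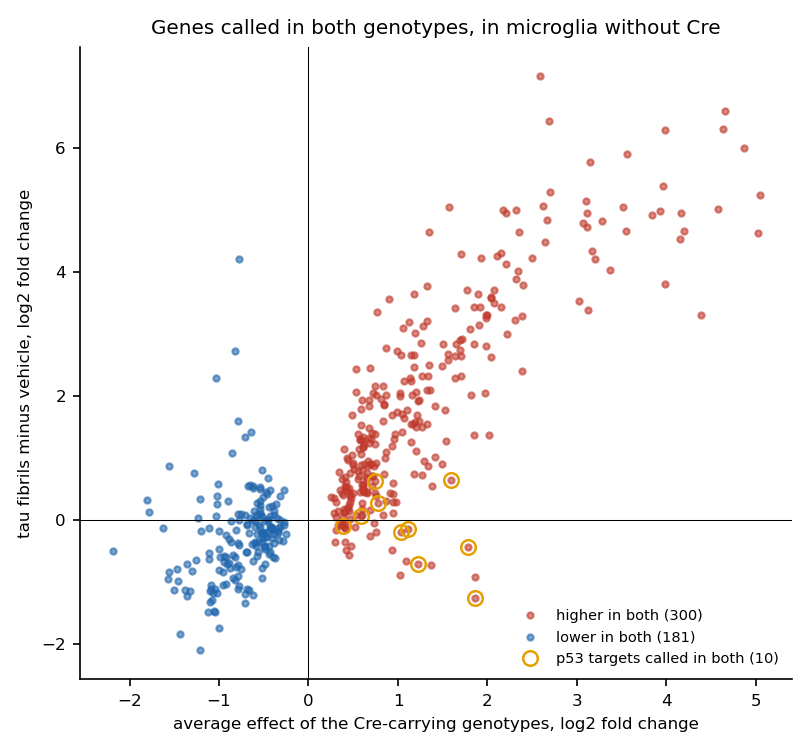
Genes called in both genotypes, with the average log2 fold change of the Cre-carrying genotypes on the horizontal axis and the log2 fold change of tau fibrils over vehicle in microglia without Cre on the vertical axis. Red points are the 300 genes higher in both and blue points the 181 lower in both that were tested with tau, and rings mark the 10 p53 targets. Most red points lie above 0 on the vertical axis, and the ringed points lie between -1.27 and 0.65.

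The PS19 comparison used adult and not newborn cells. In microglia isolated from male PS19 mice aged 11 months, which carry a mutant human tau transgene, and from non-transgenic males of that age (4 libraries each), 8 of 11323 genes were higher (0.0707%) and 0 lower (0.0%) by edgeR, while 560 and 417 had an unadjusted p under 0.05. The paper, using edgeR and limma at the same FDR threshold, listed many more genes as higher in this comparison, and the reason was not tested. The spread between libraries (biological coefficient of variation) was 30.5% in this fit and 20.0% in the fit of the 18 libraries. Sdc3, a heparan sulfate proteoglycan, was the gene higher in both genotypes that was also called in PS19, with a log2 fold change of 1.59 there and 1.85 in the average effect. The median PS19 log2 fold change was 0.16 in the 292 genes higher in both genotypes and 0.07 in the 189 lower in both, against 0.01 over all genes tested in both fits.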

How the data were processed

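The 18 libraries were QuantSeq 3′ mRNA-Seq libraries of primary microglia. Reads were aligned by the authors to GRCm38 (GENCODE) in Lexogen's pipeline for this kit, run on BlueBee, and the authors deposited whole-number read counts per gene, not normalized, in 1 table per library. The paper names RSEM for its count table, while each deposited table ends in 5 lines that name no gene, which were left out of library sizes. Of 47643 identifiers 47224 had a GENCODE M21 symbol. The kit reads 3′ ends, so counts do not grow with gene length, and whether counting used strand is not given in the sources used here.

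Counts were analyzed in R 4.3.3 with edgeR 4.0.16. TMM normalization, filterByExpr (minimum count 10, minimum total count 15) and the quasi-likelihood test were applied to 1 fit with a mean per genotype, and FDR is by Benjamini-Hochberg over all genes tested. The standard error was the fold change divided by the square root of its F statistic, and CPM is on TMM-adjusted library sizes. The spread between libraries (biological coefficient of variation) was 20.0%. Tau and PS19 libraries were fitted alone. A gene called in both passed in each contrast, and the contrasts share no control. No pair of libraries within a group was identical (32 pairs). The scripts were tested on simulated data. The 24 cortex samples were not analyzed here.

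Named genes were Ikbkb and Cx3cr1, the 10 rising and 10 falling genes with the largest smaller effect of the genotypes among non-overlapping calls with a mean count of at least 10, up to 4 called and 2 abundant uncalled members of each of 23 lists, called genes within 2 Mb of Cx3cr1, and the 3 highest and 3 lowest averages carried by 1 genotype. Some genes named by this rule are not reported here. Other list members and genes of small counts were named after their values were seen. The lists and genes were chosen with earlier results of these data known, so the counts over a list are descriptions. Alternatives were RLE and total-count scaling, DESeq2 1.42.0, limma-voom (limma 3.58.1), other filters, an additive model, each pair alone, the log2 CPM of Ddx3y or the percentage of reads outside genes as covariates and leaving out each library. Chosen after seeing the data were the linear CPM of Ddx3y and the library sets of IkbkbCA and IkbkbWT as covariates and counts summed within the sets of all genotypes.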

Additional observations from a re-analysis of the deposited data

Results flagged for a closer look

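Among 100 groups of values looked at for a library far from the others, 7 held one, and chance gives about 1 in 20 groups. IkbkbCA library 3 was the low value of its group for Irf7 (74.36 CPM) and Ifit3 (74.55 CPM) and the high value for Nfkbia (1317 CPM) and Acod1 (223.8 CPM). Ikbkb+/+ library 3 was high for Lyve1 (56.8 CPM), IkbkbWT library 2 was high for Ikbkb (58.73 CPM) and Ikbkb+/+ library 2 was low for Ikbkb (45.71 CPM). Without IkbkbCA library 3 the interferon response list still had 51 genes called higher in the average effect.

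The IkbkbCA and Ikbkb-/- effects differed for 23 of the 127 named genes in the test of the difference (edgeR quasi-likelihood test, FDR under 0.05). Over all genes tested 386 of 12352 (3.12%) differed. Ly6i, Saa3, Acod1, Siglech, Gem and H2-Eb1 were named by a rule that required this call, so they had to be among the 23. For the 23 the average does not give the size of either effect. Some, such as H2-K1 and Nusap1, still changed in the same direction in both genotypes. The difference in log2 fold change, IkbkbCA effect minus Ikbkb-/- effect, was largest for Saa3 (6.69), S100a8 (6.24), Ly6i (5.78), Acod1 (5.48) and the MHC class II gene H2-Eb1 (4.95). For Saa3, Ly6i and Acod1 the rise was in IkbkbCA, and for H2-Eb1 the fall was in Ikbkb-/-. Complement C3 differed by 3.97, Siglech by 3.76, Gem by 3.33, Nfkbia by 3.0, Slc1a3 by 2.63 and Pecam1 by 2.63. Genes of NF-κB and its feedback followed, with 1.89 for Relb, 1.81 for Socs3, 1.53 for Tnip1 and 1.18 for Junb, and Ikbkb itself differed by 1.38. H2-K1 differed by 1.14, Nav3 by 1.00, Hif1a by 0.82, Nusap1 by 0.79 and Ctnnb1 by 0.49. Ccr1 (-1.50) and Cmpk2 (-1.14) had the lower value in IkbkbCA.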

How the results depend on the processing

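Over settings that kept all libraries, 1399 of 1490 values of named genes kept direction and side of the threshold, 72 lost and 17 gained a call, and 2 changed sign, those of Xist, which went from -2.51 to 0.84 and 0.82 with the log2 and the linear CPM of Ddx3y as a covariate. Leaving out each library gave 2007 to 2650 average calls. Calls in opposite directions then numbered 12 (without Ikbkb+/+ library 1) to 30 and differences 255 (without Ikbkb+/+ library 3) to 431. Without Ikbkb-/- library 3 there were 13 in opposite directions. Total-count scaling called 1723 genes lower in IkbkbCA and moved its median of all genes to -0.11. Voom called 12 in opposite directions. With each pair alone Ikbkb-/- had 859 higher and 782 lower and 42 were opposite. With a covariate for the percentage of reads outside genes the calls were 418 higher and 357 lower on average, or 775, 247 and 121 in IkbkbCA, 120 and 66 in both, 3 opposite and 107 differences, with 9 p53 targets and 6 immediate early genes. That percentage did not overlap between IkbkbCA and IkbkbWT. With linear Ddx3y, Ikbkb-/- had 206 and 202, both 153 and 111, 13 opposite and 164 differences. With the library set as a covariate Ikbkb-/- had 810 and 786, 371 were lower in both, 66 opposite and 971 differences. Summed sets gave 732 calls, 432 and 300, 483 and 280 in IkbkbCA, 102 and 53 in Ikbkb-/-, 91 and 25 in both, 3 opposite and 22 differences, with 18 replication and 3 immediate early genes. The cause was not tested. Interferon response calls were 47 to 51, except 38 where fewer were tested at 10 counts in every library. p53 targets called higher were 9 to 19, replication genes lower 18 to 42 and border-associated macrophage markers lower 4 to 7. The genes for the interferons themselves had few or no reads, and whether depth was the reason was not tested. No paired analysis was possible because replicate numbers follow accession order and no label pairs the libraries. The library sets, found in the data, served as a block in their place.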
